A study of Mus musculus with 8 samples.

Results

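Of the 27391 circles in a table of circular RNAs (circRNAs) of the mouse heart, 88 carried the gene names Asph, Camk2d, Trdn or Cacna1c, and these 88 are described here. They were chosen by gene name alone, with no measured value. Asph gave 34 circles with 2824 back-spliced reads in all libraries together, Cacna1c 35 circles with 614 reads, Camk2d 11 circles with 56 reads and Trdn 8 circles with 18 reads. A back-spliced read spans the closing junction of a circle, where an exon's end has been spliced to its own start or to that of an exon farther upstream. All libraries came from heart tissue of male mice of wild-type (WT) genotype, 4 of them sham-operated and 4 with transverse aortic constriction (TAC), a surgical narrowing of the aorta that makes the left ventricle pump against a raised pressure. Tissue was taken 8 weeks after surgery in both groups, 1 library per mouse, and no age is given in the sources used here. The comparison asks which circles differ between pressure-overloaded and sham-operated hearts.

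The 4 genes act at the junction between the surface membrane and the sarcoplasmic reticulum of the heart muscle cell. Cacna1c encodes the pore-forming subunit of the L-type calcium channel, whose calcium current triggers the release channel Ryr2. Triadin, from Trdn, and junctin, a short product of Asph, hold the calcium store protein calsequestrin beside Ryr2, whereas the long product of Asph is an aspartyl beta-hydroxylase that carries its catalytic part at the carboxy-terminal end. Camk2d encodes the main cardiac form of the calcium/calmodulin-dependent kinase, which phosphorylates Ryr2 and the regulators of reuptake.

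A circle is defined by its closing junction, which no linear transcript of the gene contains, so the junctions of the circles with the most reads are shown for each gene. Each run gives the last 20 bases of the circle's last exon in lower case, then the first 20 bases of its first exon in capitals, 5′ to 3′, read from GENCODE M21 transcripts on the mm10 assembly (GRCm38). Circles are called by their first and last exon, counted in 1 coding transcript per gene. The first of them, Asph exons 2 to 3, lay at chr4:9635901-9639347 (minus strand) and Asph exons 4 to 12 at chr4:9583812-9610938. Cacna1c exons 2 to 3 lay at chr6:119052601-119057515 and exons 4 to 5 at chr6:118776417-118780324, both on the minus strand. Camk2d exons 8 to 13 lay at chr3:126783955-126801761 and Trdn exons 2 to 4 at chr10:33139074-33158278, both on the plus strand.
Asph exons 2 to 3: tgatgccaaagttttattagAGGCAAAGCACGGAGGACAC
Asph exons 4 to 12: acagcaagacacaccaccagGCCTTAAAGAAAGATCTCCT
Asph exons 15 to 19: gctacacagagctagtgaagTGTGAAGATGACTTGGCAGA
Asph exons 15 to 16: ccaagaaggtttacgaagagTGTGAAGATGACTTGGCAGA
Asph exons 17 to 19: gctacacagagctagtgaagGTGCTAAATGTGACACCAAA
Cacna1c exons 2 to 3: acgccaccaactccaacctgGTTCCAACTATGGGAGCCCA
Cacna1c exons 4 to 5: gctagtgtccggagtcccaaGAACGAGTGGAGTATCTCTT
Camk2d exons 8 to 13: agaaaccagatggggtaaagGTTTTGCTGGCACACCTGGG
Trdn exons 2 to 4: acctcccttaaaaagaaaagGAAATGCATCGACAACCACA
The runs show how sites were shared. The circles of Asph exons 15 to 19 and 15 to 16 have the same capitals, the start of exon 15, and those of exons 15 to 19 and 17 to 19 have the same lower-case side, the end of exon 19.

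The most read of these circles, Asph exons 2 to 3, is short enough to be shown whole. The run starts at the first base of exon 2, with the 20 bases that follow the closing junction in capitals, and is 219 nt long with a GC content of 47.0%. Both outer borders of this circle were present in 15 of 15 coding transcripts of Asph, so it is drawn from the part that the junctin and hydroxylase products share.
Asph exons 2 to 3, whole circle: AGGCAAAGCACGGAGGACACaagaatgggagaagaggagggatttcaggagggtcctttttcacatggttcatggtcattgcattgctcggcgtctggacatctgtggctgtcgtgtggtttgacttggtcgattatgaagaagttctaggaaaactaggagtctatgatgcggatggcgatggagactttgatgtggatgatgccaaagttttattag

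The libraries were of very unequal depth, from 1119 to 100142 back-spliced reads. Sham replicate 2 (3963 reads) and TAC replicate 2 (1119 reads) were far shallower than the other 6, called deep libraries here, and results that rest on them are given with and without them. The median read of the deep libraries came from circles of 353 to 394 nt in sham and 499 to 543 nt in TAC, while the shallow ones stood at 491 nt in sham replicate 2 and 335 nt in TAC replicate 2. Values are back-spliced reads divided by 1 size factor per library (normalised reads), so 1 read is worth 4.54 in sham replicate 2 and 5.77 in TAC replicate 2 but 0.195 to 1.03 in the deep libraries. Cardiomyocyte markers gave circles in 10 of 12 cases (Pln and Tnni3 had none), with summed levels of 163 to 527 normalised reads in sham (median 239.7) and 231 to 733 in TAC (median 675). Fibroblast markers (5 of 8 with circles) summed to 1.66 to 4.54 in sham and 0 to 1.49 in TAC, and smooth muscle and pericyte markers (2 of 7) to at most 1.27. Endothelial markers (8 of 8) summed to 14.0 to 40.9 in sham and 5.77 to 56.6 in TAC, leukocyte markers (5 of 8) to 14.4 to 28.6 and 11.5 to 40.1, and skeletal muscle markers, of which 1 of 9 had circles, to at most 3.50. Neither these markers' part nor that of circle length in the results on the 4 genes was tested.

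Most of the 88 circles were rare. Of these, 40 (45.5%) were seen in 1 library only, against 61.7% of the whole table, 32 rested on a single read, and 2 were seen in all 8 libraries: exons 2 to 3 of Asph and exons 2 to 3 of Cacna1c. Only 22 circles were above 0 in at least 4 of 8 libraries and entered the test with limma, 11 of Asph, 9 of Cacna1c, 2 of Camk2d and 0 of Trdn. None of the 22 passed limma's test at an adjusted p of 0.05, and 0 had an unadjusted p under 0.05; over all 3735 circles tested, 0.0268% passed and 4.07% had such a p. Their limma log2 fold change, TAC over sham, was positive for 15 and negative for 7, with a median of 0.24 against 0.15 over all circles tested. With the edgeR quasi-likelihood test on the recovered reads, 0 of 6 circles tested passed and 1 had an unadjusted p under 0.05, where 13.1% of all 717 circles passed and 28.5% had such a p. DESeq2 also called 0, with 1 at an unadjusted p under 0.05, where 1.68% of all circles passed and 14.6% had such a p.

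Sham and TAC libraries overlapped for each of the 22 circles, whereas 3.11% of the 3735 circles had groups that were apart. Over the 6 deep libraries the picture was different. Of 28 circles of the 4 genes above 0 in at least 3 deep libraries, 12 had all 3 TAC libraries above all 3 sham libraries, where 23.8% of the 5809 such circles did, and 3 had all TAC libraries below, where 8.83% did. The 12 were 7 circles of Cacna1c and 5 of Asph, and the 3 lower ones were all from Asph. However, 4 of the 12 had no read in any sham library: they passed the filter through the TAC libraries alone, which fixed their order. Of the 24 circles with reads in deep libraries of both groups, a restriction chosen after seeing the data, 8 were above, where 15.6% of 5095 such circles were, and 3 below, where 7.56% were. Over the deep libraries limma called 5 of 28 circles higher in TAC and 0 lower, where 14.6% and 3.2% of all circles were called, but 4 of the 5 are the same circles without a sham read. These counts describe the circles that passed the filter and support nothing further. In the same libraries edgeR called 1 of 9 higher and 1 of 9 lower, where 16.4% and 13.6% were called.

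For Cacna1c, the trigger channel, circles took a larger part of the library in every TAC heart than in any sham heart. The gene held 0.199, 0.227, 0.285 and 0.155% of all back-spliced reads in sham replicates 1 to 4 and 0.341, 0.536, 0.437 and 0.296% in TAC replicates 1 to 4. The lowest TAC share, in replicate 4, was just above the highest sham share, in replicate 3, and their 95% Wilson intervals overlapped (0.245 to 0.358% and 0.217 to 0.375%). These intervals cover counting error only and not the spread between mice. PCR reads without molecular identifiers are not independent molecules, so the intervals can be too narrow even for counting error. The mean share was 0.403 ± 0.107% in TAC and 0.216 ± 0.0546% in sham (SD, n = 4 each), a difference of 0.186 percentage points with an exact two-sided permutation p of 0.0286, the smallest that 4 against 4 libraries allow. This p was not adjusted for the other exact tests on the 4 genes. Every TAC library lay above every sham library for 1.18% of the 2960 hosts tested and below for 3.18%. The share of 0.536% in TAC replicate 2 rests on 6 reads, with an interval of 0.246 to 1.16%. Leaving out sham replicate 1, 2, 3 or 4 or TAC replicate 2 raised the exact p to 0.0571, with differences between 0.142 and 0.209 percentage points, and without both shallow libraries it was 0.145 percentage points (exact p = 0.1, the smallest for 3 against 3).

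**Figure D1:**
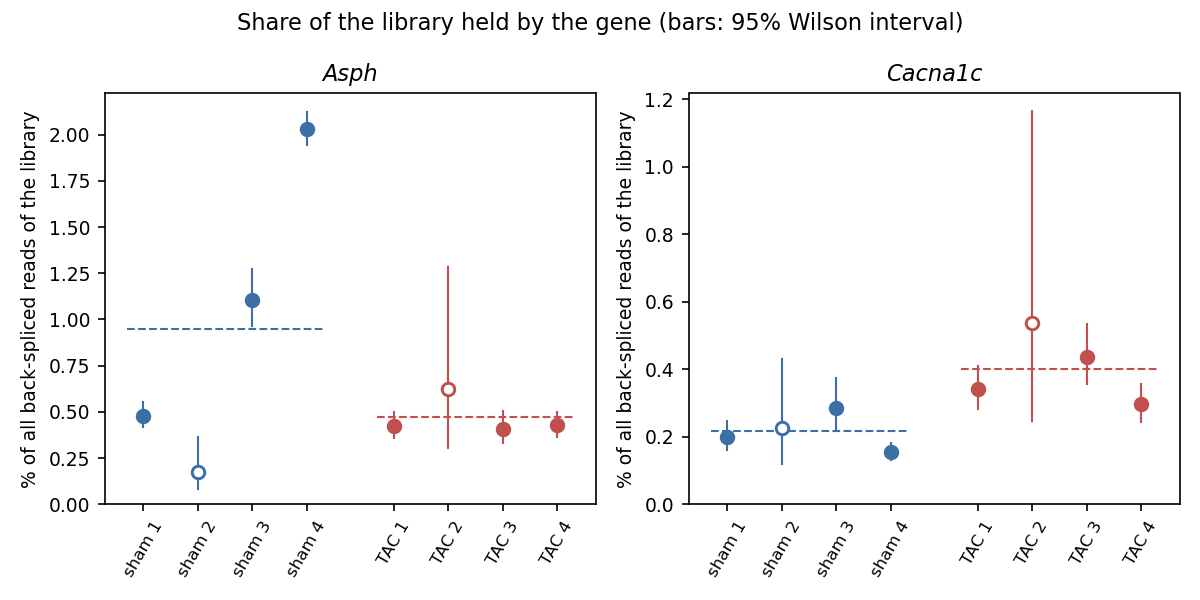
Share of each library's back-spliced reads (percent, y axis) that came from Asph (left) and Cacna1c (right) in the 4 sham (blue) and 4 TAC (red) libraries (x axis), with 95% Wilson intervals as bars, group means as dashed lines and the shallow libraries as open circles. The Cacna1c points of TAC all lie above those of sham, from 0.296% upwards against at most 0.285%, and the highest Asph point is sham replicate 4 at 2.03%.

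The summed normalised level of Cacna1c circles was 30.7, 40.9, 42.2 and 30.2 in sham replicates 1 to 4 and 84.0, 34.6, 94.7 and 68.0 in TAC replicates 1 to 4. The 3 deep TAC libraries were above every sham library, and the shallow TAC replicate 2 lay among the sham values. The mean was 70.4 ± 26.2 normalised reads in TAC and 36.0 ± 6.45 in sham (SD, n = 4 each). By limma the log2 fold change was 0.88 ± 0.67 (SE throughout, adjusted p = 0.9995), and the exact permutation p was 0.0857. The gene did not pass with edgeR (log2 fold change 0.66, adjusted p = 0.566) or DESeq2 (0.81, adjusted p = 0.184). None of the 4 genes passed at the level of summed circles with limma (0.0338% of 2960 hosts passed), edgeR (8.25% of 1018) or DESeq2 (3.15% of 951). At an unadjusted p under 0.05, limma had none of the 4 (3.04% of hosts had such a p), edgeR had Asph (24%), and DESeq2 had Asph and Cacna1c (18%). Without the shallow libraries, limma called Cacna1c higher in TAC (1.26 ± 0.28, adjusted p = 0.0210, where 5.03% of 3640 hosts were called higher). The edgeR value over these 6 libraries was 0.85 ± 0.31 (adjusted p = 0.0620), and 23.1% of hosts had all deep TAC sums above all deep sham sums. In the same edgeR fit 3 of 7 cardiomyocyte markers were called higher, namely Ttn (2.05 ± 0.32), Myh6 (1.98 ± 0.39) and Rbm20 (2.40 ± 0.45), and 0 lower, where 10.8% of hosts were called higher. Of the 7, 5 were positive and 2 negative, namely Mybpc3 (-0.94 ± 0.48) and Myom1 (-0.02 ± 0.38). Of 4 endothelial markers all were positive and 1, Pecam1 (1.52 ± 0.52), was called higher. The part of these markers in the Cacna1c value was not tested. In bulk tissue a change in the number of muscle cells and a change in RNA per cell cannot be told apart.

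**Figure D2:**
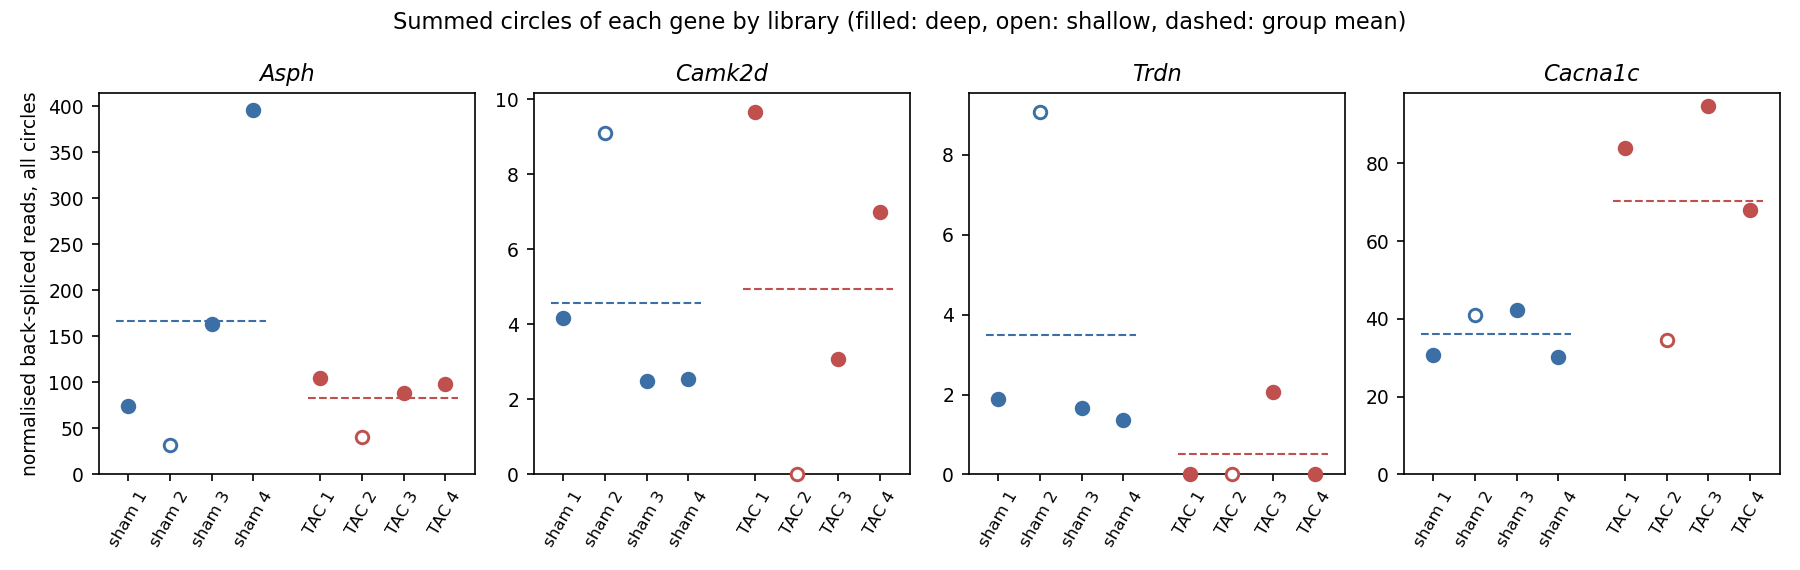
Summed normalised back-spliced reads of all circles of each gene (y axis, a scale of its own per panel) in the 8 libraries (x axis), filled for deep and open for shallow libraries, with group means as dashed lines. The 3 deep TAC libraries of Cacna1c stand at 68.0 to 94.7 against at most 42.2 in sham, and sham replicate 4 of Asph stands alone at 396.

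Cacna1c reads came mainly from the 5′ end of the gene. The circle of exons 2 to 3 (428 nt) had 8.72, 18.2, 22.4 and 13.8 normalised reads in sham replicates 1 to 4 and 41.6, 5.77, 44.3 and 26.1 in TAC replicates 1 to 4. Again the 3 deep TAC libraries were above all sham libraries and TAC replicate 2, with 1 read, was lowest. The mean was 29.4 ± 17.7 in TAC and 15.8 ± 5.85 in sham (SD, n = 4 each), the limma log2 fold change was 0.62 ± 1.06 (adjusted p = 0.950), and over the deep libraries edgeR gave 1.17 ± 0.44 (adjusted p = 0.0545). This circle did not take a larger part of the gene's own reads in TAC: its share of them was 28.4, 44.4, 52.9 and 45.8% in sham and 49.6, 16.7, 46.7 and 38.3% in TAC (exact permutation p = 0.6).

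The second circle, exons 4 to 5 (280 nt), stood at 13.3, 0, 12.4 and 9.92 normalised reads in sham and 11.9, 17.3, 8.23 and 19.7 in TAC. Its groups overlapped, and over the deep libraries the edgeR log2 fold change was -0.02 ± 0.48 (adjusted p = 0.975), against 1.68 ± 1.36 (adjusted p = 0.836) with limma over all 8. The limma value was 1.11 with a pseudocount of 1 and 0.20 without sham replicate 2, the library at 0. Exons 6 to 9 were at 3.03, 9.09, 0 and 0 in sham and 3.72, 0, 6.18 and 3.18 in TAC, and exons 4 to 6 (439 nt) at 0.758, 9.09, 0.828 and 0.584 in sham and 2.23, 0, 3.09 and 1.27 in TAC. In both of these the value of 9.09 is that of 2 reads in the shallow sham replicate 2. The acceptor of exon 2 served 43.6% of the gene's reads in 2 circles, and the acceptor of exon 4 served 35.1% in 7 circles that ended at exons 5, 6, 7, 9, 10, 18 and 29.

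Farther along Cacna1c, more circles were listed in the deep TAC libraries, and the table as a whole went the same way in part. In total 33 of the 35 Cacna1c circles were seen in TAC and 14 in sham, 12 of them in both. Circles per library numbered 9, 4, 7 and 7 in sham and 18, 3, 21 and 21 in TAC, and the deep TAC libraries, with 92 to 113 Cacna1c reads, had more circles than sham replicate 4 with 155 reads. Circles of all genes numbered 9081, 1830, 4980 and 5600 in sham and 10786, 567, 7770 and 11550 in TAC. Here TAC replicates 1 and 4 were above every sham library, while the deep TAC replicate 3 was below sham replicate 1. The part of these numbers in those of Cacna1c was not tested. The 24 circles that ended after exon 9 held 8.64, 0, 7.84 and 9.03% of the gene's reads in sham replicates 1 to 4 and 22.1, 0, 23.9 and 17.8% in TAC replicates 1 to 4. Both shallow libraries, with 9 and 6 reads of the gene, had none, and the deep TAC shares were all above the deep sham shares. Of these, 8 circles started at exon 11 or 12 and had 0 reads in sham and 15 in TAC (6, 0, 4 and 5 by library), and 9 ended at exon 29 with 1 read in sham and 13 in TAC. The longest circle, exons 4 to 29, joined 26 exons over 3351 nt and had 1 read each in TAC replicates 3 and 4. The circle of exons 33 to 39 was the reverse case, with 14 reads, all in sham replicate 4. These groupings by position were made after the values were seen and were not tested as such, while single circles among them entered the fits, as given further on for exons 4 to 10 and 11 to 23.

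Cacna1c has a pair of alternative exons at position 8, which the channel's transcripts use one at a time. A 277 nt circle with exon 9 was found for either form, and their junctions share the donor of exon 9 and differ on the acceptor side.
Cacna1c exons 8 to 9: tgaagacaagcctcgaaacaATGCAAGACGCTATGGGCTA
Cacna1c alternative exon 8 to exon 9: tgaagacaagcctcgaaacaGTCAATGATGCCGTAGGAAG
The first form had 1, 0, 0 and 3 reads in sham replicates 1 to 4 and 2, 0, 4 and 1 in TAC, and the alternative form had 0, 0, 2 and 7 in sham and 0, 0, 0 and 1 in TAC. Coding transcripts with both borders numbered 10 of 22 for the first form and 12 of 22 for the alternative one. Neither form passed: limma gave 1.53 ± 1.30 (adjusted p = 0.842) for the first form over all libraries and 2.04 ± 0.96 (adjusted p = 0.198) over the deep ones, where it is among the 8 with all TAC libraries above. The alternative form, with 10 reads in all, most of them in sham replicate 4, was at -1.39 ± 1.09 by limma over the deep libraries (adjusted p = 0.467). The difference between the forms was not tested. These 2 circles were picked out after their values were seen.

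**Figure D3:**
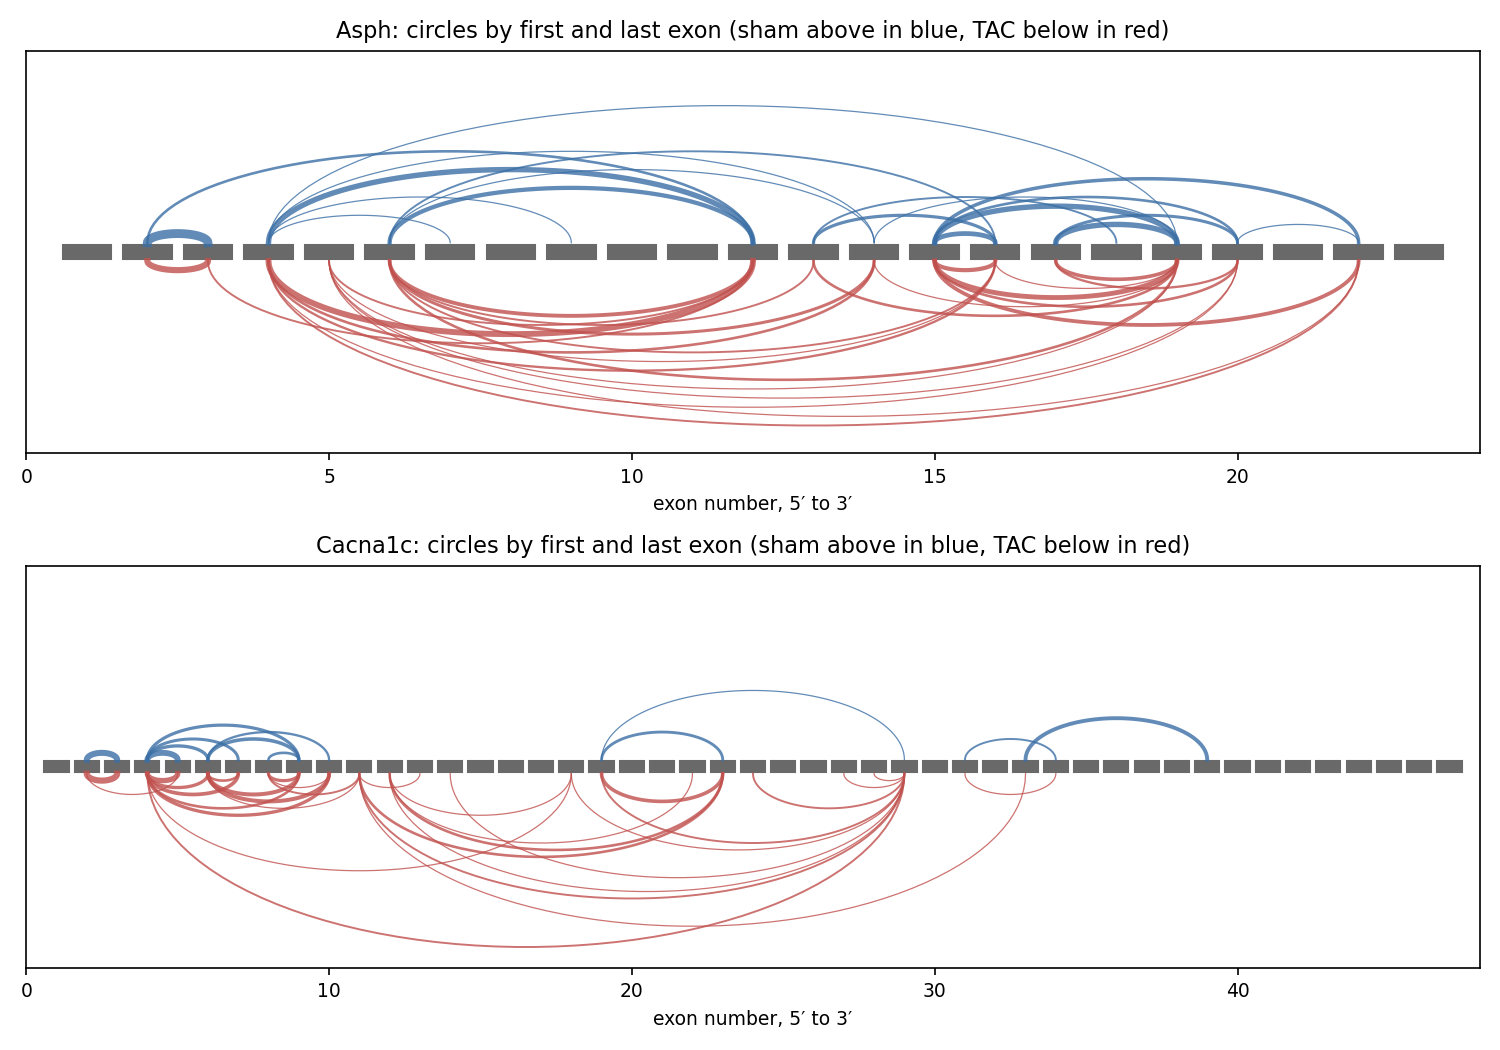
Circles of Asph (top, 23 exons) and Cacna1c (bottom, 47 exons) as arcs from first to last exon (x axis, exon number, exons drawn at equal width), summed over the 4 sham libraries above the line in blue and the 4 TAC libraries below it in red, with line width growing with the logarithm of the reads. The circles of Asph exons 2-alt and Cacna1c alternative exon 8 and the intronic circle are not drawn, and the long arcs from exons 11 and 12 of Cacna1c are seen below the line only (15 reads in TAC, 0 in sham).

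Asph, the source of junctin, junctate and the hydroxylase, had the most reads of the 4 genes, and they were spread unevenly over the sham mice. Its circles summed to 74.3, 31.8, 164 and 396 normalised reads in sham replicates 1 to 4 and 105, 40.4, 88.5 and 98.6 in TAC replicates 1 to 4. Sham replicate 4 was far above all other libraries, and the TAC values lay within the sham range. The mean was 166 ± 162 in sham and 83.1 ± 29.2 in TAC (SD, n = 4 each). The log2 fold change was -0.51 ± 0.50 by limma (adjusted p = 0.9995) and -1.38 ± 0.64 by edgeR (adjusted p = 0.161), and the exact permutation p was 0.543. Asph passed as lower in TAC with edgeR over the deep libraries (-1.46 ± 0.42, adjusted p = 0.0219, where 10.5% of 1384 hosts were called lower) and with edgeR without sham replicate 2 alone (-1.70, adjusted p = 0.0255). It did not pass with limma over the deep libraries (-0.80, adjusted p = 0.316), and without sham replicate 4 the limma value was 0.10 (adjusted p = 0.999). As part of the library, Asph held 0.480, 0.177, 1.11 and 2.03% in sham and 0.426, 0.626, 0.408 and 0.429% in TAC (exact permutation p = 0.343).

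The short circle of exons 2 to 3 carried most of this spread. It stood at 39.8, 4.54, 123 and 358 normalised reads in sham replicates 1 to 4 and 33.5, 40.4, 27.8 and 38.2 in TAC replicates 1 to 4. Each deep sham library was above each deep TAC library, narrowly in sham replicate 1 and by the most in sham replicate 4, and sham replicate 2, with 1 read of this circle, was lowest of all. Means were 131 ± 159 in sham and 35.0 ± 5.59 in TAC (SD, n = 4 each), the limma log2 fold change was -0.63 ± 0.78 (adjusted p = 0.922) and the edgeR one -2.22 ± 0.87 (adjusted p = 0.0657). Over the deep libraries it passed as lower in TAC with edgeR (-2.51 ± 0.57, adjusted p = 0.00486) but not with limma (-1.87 ± 0.66, adjusted p = 0.0960), and edgeR also called it without sham replicate 2 alone (-2.55, adjusted p = 0.0279). Without sham replicate 4 the limma log2 fold change was 0.29 (adjusted p = 0.995).

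Within the gene, the circle of exons 2 to 3 made up 53.6, 14.3, 74.7 and 90.6% of Asph reads in sham and 31.9, 100, 31.4 and 38.7% in TAC (exact permutation p = 0.8). The deep libraries did not overlap, with 53.6% and more in sham and 38.7% and less in TAC, a difference of -39.0 percentage points (exact p = 0.1, the smallest for 3 against 3). The shallow libraries stood the other way round on 7 Asph reads each, 1 of 7 in sham replicate 2 and 7 of 7 in TAC replicate 2.

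A neighbouring circle that starts at the same acceptor of exon 2 but ends at an exon of another isoform (261 nt, borders in 4 of 15 coding transcripts) had 2, 0, 1 and 43 reads in sham and 1, 0, 0 and 0 in TAC. Its junction has the capitals of the circle of exons 2 to 3 and another donor side. It is referred to as exons 2-alt and was picked out after its values were seen.
Asph exons 2-alt: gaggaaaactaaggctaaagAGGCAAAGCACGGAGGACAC
Together with this circle and 1 from exons 2 to 12, the acceptor of exon 2 served 80.9% of all Asph reads pooled over the libraries. Sham replicate 4 alone gave 2034 of the 2824 Asph reads.

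The longer circle of exons 4 to 12 (528 nt), from the stretch between the shared start and the hydroxylase exons, went the other way in the deep libraries. It had 4.93, 18.2, 8.28 and 7.39 normalised reads in sham replicates 1 to 4 and 34.9, 0, 30.9 and 20.4 in TAC replicates 1 to 4. Deep TAC libraries were all above every sham library, TAC replicate 2 had no read of it, and sham replicate 2 was the highest sham library on 4 reads. Means were 21.5 ± 15.6 in TAC and 9.69 ± 5.83 in sham (SD, n = 4 each). The log2 fold change was -0.12 ± 1.33 by limma (adjusted p = 0.997) and 1.30 ± 0.77 by edgeR (adjusted p = 0.253). Without TAC replicate 2, the library at 0, the limma value was 1.68 (adjusted p = 0.185), and with a pseudocount of 1 it was 0.37. Over the deep libraries it passed as higher in TAC with edgeR (1.89 ± 0.44, adjusted p = 0.00581) and with limma (2.03 ± 0.39, adjusted p = 0.0308), and edgeR also called it without TAC replicate 2 alone (1.75, adjusted p = 0.0417).

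**Figure D4:**
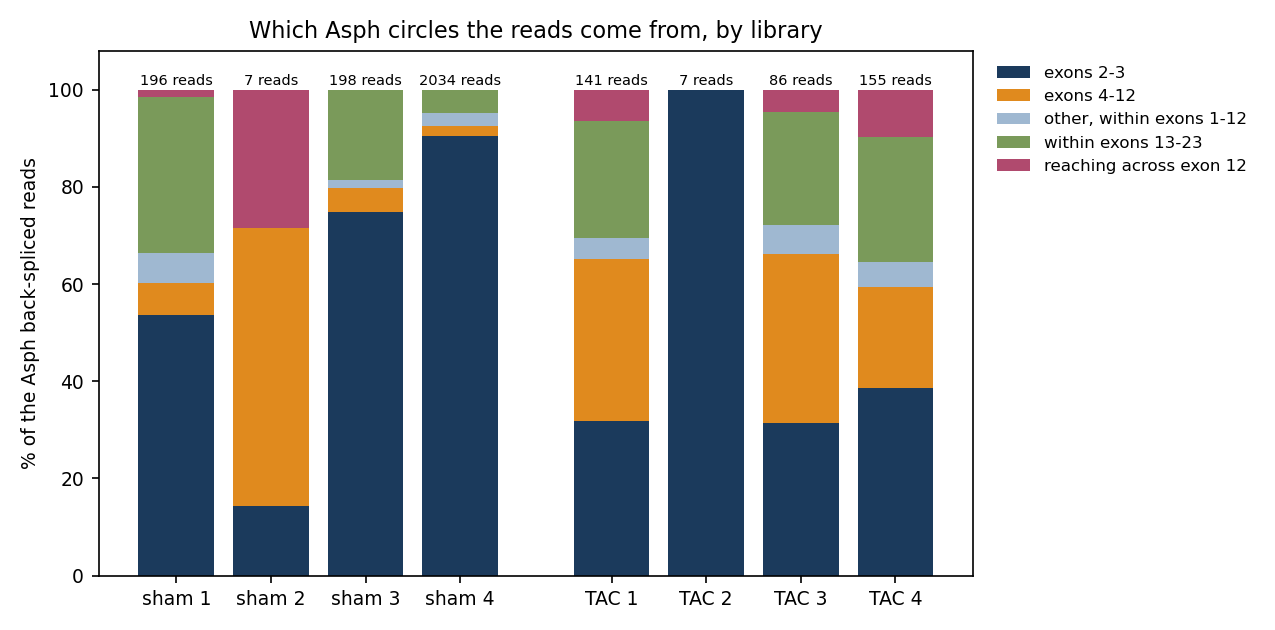
Percent of the Asph back-spliced reads of each library (y axis) that came from 5 classes of circles (colours), for the 4 sham and 4 TAC libraries (x axis), with the number of Asph reads above each bar; the circle of exons 2-alt is counted as other within exons 1 to 12. In the deep libraries the darkest part, exons 2 to 3, runs from 53.6 to 90.6% in sham and from 31.4 to 38.7% in TAC, and sham replicate 2 and TAC replicate 2 rest on 7 reads each.

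Circles within exons 13 to 23, present in the long transcripts only, numbered 12 and had 290 reads. Their most read members shared borders with each other, and each had its outer borders in 3 of 15 coding transcripts. Exons 15 to 19 (615 nt) had 7.96, 0, 8.28 and 6.42 normalised reads in sham and 11.2, 0, 6.18 and 10.8 in TAC, a difference within the spread of either group (edgeR over the deep libraries 0.14 ± 0.48, adjusted p = 0.845). Exons 15 to 16 (288 nt) had 3.79, 0, 7.45 and 2.92 in sham and 2.97, 0, 6.18 and 5.72 in TAC, with groups that overlapped (-0.04 ± 0.67, adjusted p = 0.973 in the same edgeR fit). Exons 17 to 19 (327 nt) had 8.72, 0, 4.97 and 7.39 in sham and 2.97, 0, 1.03 and 3.82 in TAC. Here the deep sham libraries were all above the deep TAC libraries, and the edgeR fit over them gave -1.58 ± 0.63 (adjusted p = 0.0683), which did not pass. The shallow libraries had no read of any of these circles. The circle of exons 6 to 12 (357 nt) had 3.03, 0, 1.66 and 2.14 normalised reads in sham and 2.97, 0, 3.09 and 4.45 in TAC, also overlapping (limma 0.45 ± 1.60, adjusted p = 0.988).

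Other Asph circles reached from exons 1 to 12 into exons 13 to 23. There were 13 of them with 33 reads, 3, 2, 0 and 0 in sham replicates 1 to 4 and 9, 0, 4 and 15 in TAC replicates 1 to 4. They made up 6.38, 4.65 and 9.68% of Asph reads in the deep TAC libraries and at most 1.53% in the deep sham libraries, while sham replicate 2 had 2 of its 7 reads there. In sham 4 of the 13 circles were seen, and in TAC 12. The longest joined exons 4 to 22 over 1678 nt, with 1 read each in TAC replicates 1 and 4. This grouping was made after the values were seen and was not tested as such, while single circles of it entered the fits, among them exons 4 to 16.

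Of the 5 circles that limma called higher over the deep libraries, the circle of Asph exons 4 to 12 was the only one with reads in sham. The other 4 had no read in any sham library and entered the fit through TAC alone, so their calls are a description: Asph exons 13 to 19 had 2, 1 and 1 reads in TAC replicates 1, 3 and 4, Asph exons 4 to 16 had 1, 1 and 1, Cacna1c exons 4 to 10 had 4, 1 and 3, and Cacna1c exons 11 to 23 had 2, 1 and 1. No fold is given for them, since a count of 0 allows up to 3 reads in a library.

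Trdn, the gene of triadin, gave the fewest reads, and 7 of its 8 circles were seen in sham and 2 in TAC. Its reads numbered 5, 2, 2 and 7 in sham replicates 1 to 4 and 0, 0, 2 and 0 in TAC replicates 1 to 4. Every sham library had reads of the gene, and TAC replicate 3 was the only TAC library that did. The share of the library was 0.0123, 0.0505, 0.0112 and 0.00699% in sham, and the counts of 0 in TAC replicates 1, 2 and 4 allow shares of up to 0.00905, 0.268 and 0.00831%. The share of sham replicate 4 lies below all 3 limits, so the counts of 0 do not exclude a level like its own in those TAC libraries. The share differed by -0.0179 percentage points (0.0202 ± 0.0203% in sham and 0.00237 ± 0.00475% in TAC, SD, n = 4 each, exact permutation p = 0.0571). Without sham replicate 4 it differed by -0.0223 points (exact p = 0.0286, the smallest that 3 against 4 libraries allow). Leaving out any other single library gave no exact p under 0.05. The share of the shallow sham replicate 2 rests on 2 reads, and without that library the difference was -0.00777 points. The summed level had a limma log2 fold change of -2.93 ± 1.50 (adjusted p = 0.9995), a value that depends on the pseudocount in the libraries at 0, and an exact permutation p of 0.114.

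No Trdn circle was found in more than 2 libraries. The most read one, exons 2 to 4 (405 nt), had 7 reads in sham replicate 4 and 1 in TAC replicate 3. The highest mean was that of exons 6 to 7 (123 nt), the shortest circle of the 4 genes, which rested on 2 reads in the shallow sham replicate 2. Exons 26 to 33 (276 nt) had 3 reads in sham replicate 1. The other 5 circles had 1 read each. Of all 8 circles, 5 lay within exons 22 to 37, with both borders listed in 1 of 7 coding transcripts.

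Camk2d circles were few in both groups and did not separate them. The gene had 11, 2, 3 and 13 reads in sham replicates 1 to 4 and 13, 0, 3 and 11 in TAC replicates 1 to 4, or 4.17, 9.09, 2.48 and 2.53 normalised reads in sham and 9.67, 0, 3.09 and 6.996 in TAC. TAC replicate 1 was highest and TAC replicate 2 lowest, so the TAC range enclosed that of sham. The limma log2 fold change was -0.68 ± 1.55 (adjusted p = 0.9995, exact permutation p = 0.8), and without the shallow libraries it was 0.96 (adjusted p = 0.363). As part of the library the gene held 0.0268 ± 0.0168% in sham and 0.0210 ± 0.0174% in TAC (SD, n = 4 each, exact permutation p = 0.686).

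All Camk2d circles lay between exons 4 and 14 of 15. Exons 6 to 14 (692 nt) had 1, 1, 0 and 4 reads in sham and 1, 0, 2 and 4 in TAC, exons 8 to 13 (467 nt) had 5, 0, 1 and 9 in sham and 2, 0, 0 and 3 in TAC, and exons 10 to 12 (250 nt) had 2, 1, 0 and 0 in sham and 0, 0, 1 and 0 in TAC. The groups overlapped for all 3. The donor of exon 13 served 24 of the gene's reads, 16 in sham and 8 in TAC, and the donor of exon 14 served 20, 6 in sham and 14 in TAC. These counts were not tested, since most of the reads came from sham replicates 1 and 4 and TAC replicates 1 and 4.

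The members' changes were set beside the length of the circles, since the read-weighted length differed between the deep libraries of the groups. In the edgeR fit over the deep libraries, 43 circles of 200 to 250 nt had a median log2 fold change of -2.08, and 23 were called, all lower in TAC. The circle of Asph exons 2 to 3, at 219 nt and -2.51, is one of them. The 69 circles of 500 to 550 nt had a median of 0.80 with a range from -0.92 to 3.04 between the 5th and 95th percentiles, and 15 were called, all higher. Asph exons 4 to 12, at 528 nt and 1.89, lies within that range. Asph exons 15 to 19 (615 nt, 0.14) lay below the median of 1.35 for circles of 550 to 1000 nt. Among circles of 250 to 400 nt (median -0.76), Asph exons 15 to 16 (-0.04) lay above the median and Asph exons 17 to 19 (-1.58) below it. The 4 Cacna1c circles in the fit ran from -0.02 at 280 nt to 2.92 at 799 nt, the last one exons 6 to 10, which did not pass (adjusted p = 0.106).

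**Figure D5:**
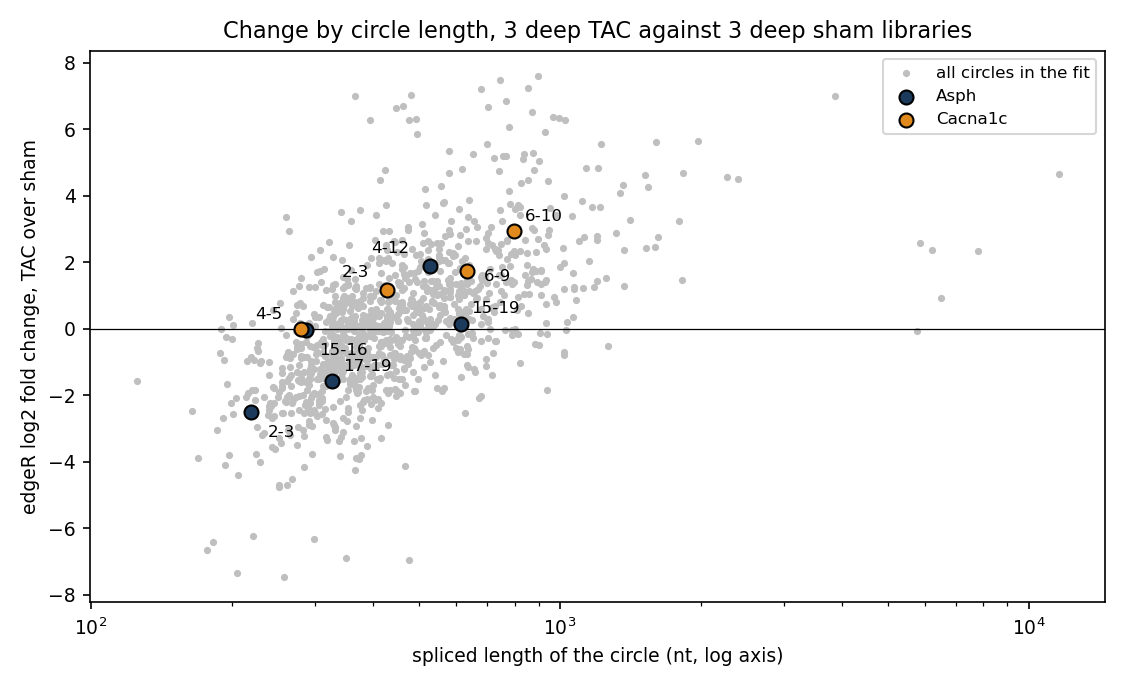
edgeR log2 fold change of TAC over sham (y axis) against spliced length (nt, log x axis) for the circles fitted over the 6 deep libraries (grey), with the Asph (blue) and Cacna1c (orange) circles marked by their exons. The marked circles run from Asph exons 2-3 at 219 nt and -2.51 up to Cacna1c exons 6-10 at 799 nt and 2.92, within the spread of the grey points.

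The length of the reads within Asph, Cacna1c and Camk2d was compared between groups, and no exact test passed. It was not tested for Trdn, with reads in 1 TAC library. For Asph the geometric mean circle length per read was 304, 528, 261 and 232 nt in sham and 408, 219, 407 and 381 nt in TAC (exact permutation p = 0.714). For Cacna1c it was 374, 511, 400 and 392 nt in sham and 491, 326, 491 and 458 nt in TAC (p = 0.743 by the exact permutation test). In both genes the deep TAC libraries were longer than the deep sham libraries and the shallow pair was the other way round, as in the libraries as a whole. For Camk2d the values were 441, 416, 389 and 527 nt in sham and 549, 493 and 531 nt in TAC replicates 1, 3 and 4, as TAC replicate 2 had no read (exact permutation p = 0.0857).

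Spliced lengths ran from 219 to 1678 nt in Asph (median 632.5), 270 to 3351 nt in Cacna1c (median 767), 250 to 764 nt in Camk2d (median 467) and 123 to 465 nt in Trdn (median 286.5). Of 87 circles with a spliced length, 83 lay wholly in coding sequence of the listed transcript. A length that is a multiple of 3 was found for 15 of 34 Asph, 8 of 30 Cacna1c, 2 of 11 Camk2d and 8 of 8 Trdn circles that were wholly coding, against 38.7% of the 22768 wholly coding circles of the table. Of the wholly coding circles with such a length, the host's reading frame met no stop codon over 1 turn in 15 of 15 for Asph, 8 of 8 for Cacna1c, 2 of 2 for Camk2d and 8 of 8 for Trdn. Such circles lie inside the host's open frame, so only a codon across the closing junction could have been a stop. The outcome was thus largely fixed by the selection. These counts describe the sequence only, and translation was not measured.

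Other genes of calcium handling were read from a list of 53 genes, of which 34 had circles in the table and 22 were tested by limma. One, Slc8a1, the sodium-calcium exchanger of the surface membrane, was higher in TAC and 0 were lower. Slc8a1 was also the only 1 of all 2960 hosts that limma called (0.0338%). Its circles stood at 60.7, 313, 24.8 and 24.7 normalised reads in sham and 1050, 63.5, 642 and 436 in TAC. The groups overlapped, since the shallow TAC replicate 2 lay below the shallow sham replicate 2. Over the 22 hosts of the list, the log2 fold change was positive for 12 and negative for 10, with a median of 0.38 against 0.13 over all hosts tested. With edgeR 1 of 9 was higher, again Slc8a1 (2.37 ± 0.68, adjusted p = 0.0174), and 0 were lower, and 2 had an unadjusted p under 0.05, where 8.25% of hosts were called and 24% had such a p. Ryr2, the release channel that the 4 genes act on, had circles at 161, 145, 77.0 and 100.4 normalised reads in sham and 232, 63.5, 210.0 and 315 in TAC, and did not pass (limma 0.61 ± 0.40, adjusted p = 0.9995).

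Among the other hosts of the list the next most read were Itpr2, Atp2a2 and Akap6. Itpr2, an inositol trisphosphate receptor, stood at 28.8, 77.2, 9.94 and 9.53 in sham and 42.4, 0, 42.2 and 45.8 in TAC. Atp2a2, the reuptake pump of the reticulum, stood at 14.4, 4.54, 24.0 and 43.2 in sham and 9.67, 0, 9.26 and 14.6 in TAC (edgeR -1.65 ± 0.65, adjusted p = 0.0900), and over the deep libraries edgeR called it lower (-1.64 ± 0.40, adjusted p = 0.00851). Akap6, an anchor of protein kinase A, stood at 9.48, 9.09, 9.11 and 16.9 in sham and 14.9, 23.1, 18.5 and 12.7 in TAC. Calsequestrin 2 (Casq2), the partner of triadin and junctin, had 1.52, 0, 2.48 and 0.778 in sham and 0, 0, 0 and 1.91 in TAC, and no circle of the reuptake inhibitor Pln was listed.

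Hosts whose summed circles followed those of the 4 genes most closely over the 8 libraries were named by Pearson's r of the log2 values. The 8 points share library depth and the size factors, and r was taken as a description over 909 hosts (910 for Trdn). Asph was most like Stag1 (r = 0.89), Vav3 (0.85) and Arhgap10 (0.83). Cacna1c was most like Nfatc2 (0.92), Myh6 (0.91) and Mef2d (0.89). Camk2d was most like Heatr5a (0.98), Ttc3 (0.98) and Zfyve1 (0.98). The Camk2d sum was 0 in the shallow TAC replicate 2 and 2.48 to 9.67 elsewhere, so this library weighs heavily on these r values. No r without it is given. Trdn was most like Mier1 (0.84), Ablim3 (0.81) and Lrrc28 (0.80).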

How the data were processed

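Hearts of 8 male wild-type mice were sequenced, 4 per group, separate animals per the labels' protocols. The deposited values have the unit signal, not described in the labels. By their steps they are the authors' counts of back-spliced reads over a size factor of the library: 100% were whole multiples, within 0.001, of the smallest value of their library, so whole reads were recovered. The submitters' processing notes name mm10, HISAT2, StringTie and DESeq2 without versions, with the circle caller and strandedness not given in the sources used here. Antisense or overlapping genes were therefore not separated. Table starts were raised by 1 so that coordinates count from 1.

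From these values, limma 3.58.1 with an intensity trend was run on log2(value + 0.194551), the smallest value above 0, for circles (or summed circles of a host gene) above 0 in at least 4 of 8 libraries. Its fold changes are on this log2 scale and depend on the pseudocount: they can understate the change of low circles and overstate it where a shallow library is at 0. The prior degrees of freedom of limma were infinite in its main fits over all 8 libraries. There its SE and p follow the trend over all features and not the spread of one feature between mice. For limma fits that left out libraries the number was not recorded. Exact permutation tests use the spread between libraries, and were run for summed circles, shares and read lengths but not for single circles. Their p values were not adjusted for the number of tests. Alternatives were the edgeR 4.0.16 quasi-likelihood test (TMM, minimum count 5, minimum total 15), with SE back-computed from its p, and DESeq2 1.42.0, both on recovered reads, limma without the trend, a pseudocount of 1, no filter, 10 reads in 4 libraries, TMM factors, library totals, and leaving out each library or both shallow ones. edgeR without libraries, and counts of circles with reads in both groups, were added after seeing the data. For the edgeR fits without 1 library, the share of all circles or hosts called is not given, so their calls lack that comparison. The Benjamini-Hochberg adjustment ran over all features of a fit, with a threshold of 0.05. Scripts were tested on simulated data.

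Of the table, 34 rows with date-like gene names were left out of the 6479 hosts. Spliced lengths came from GENCODE M21 for 94.1% of circles. The named circles are, per gene, the 3 with the largest mean, those above 0 in at least 6 of 8 libraries and any past the threshold in limma or edgeR, with likeness taken among hosts above 0 in at least 7 of 8 libraries and, of the calcium list, hosts that passed and the 4 with the largest mean. Others named are said to be picked after their values were seen; Casq2 and Pln are also such. The members and lists were chosen with earlier results of these data known.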

Additional observations from a re-analysis of the deposited data

Results flagged for a closer look

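In groups of 4 libraries, a value was looked at again when its gap to the nearest other library was large against the whole range of the group. Of 60 groups examined, 15 values met this. Of the 15, 9 were in the 2 shallow libraries, where a single read is worth 4.54 (sham replicate 2) or 5.77 (TAC replicate 2) normalised reads. A group with reads in 1 library only always meets the rule. Several values also rest on the same Trdn reads of sham replicate 2, so the count is not set against a chance rate. In sham replicate 2 the values were 9.09 for Cacna1c exons 4 to 6, 4.54 for Camk2d exons 10 to 12, 9.09 for Trdn exons 6 to 7 and for the sum of Trdn circles, 0.0505% for the Trdn share of the library, and 100% for the share of Trdn reads from exons 6 to 7. In TAC replicate 2 they were 0.626% for the Asph share of the library, 100% for the share of Asph reads from exons 2 to 3, and 219 nt for the mean length of Asph reads.

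The other 6 concern circles with reads in 1 library of the group. In TAC replicate 3 these were Camk2d exons 10 to 12 (1.03 normalised reads), Trdn exons 2 to 4 (1.03), the sum of Trdn circles (2.06) and the Trdn share of the library (0.00949%). In sham they were Trdn exons 2 to 4 in replicate 4 (1.36) and Trdn exons 26 to 33 in replicate 1 (1.14).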

How the results depend on the processing

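The results depended on the 2 shallow libraries and, for Asph, also on the deep sham replicate 4. Without sham replicate 4 the limma values of the Asph sum and of Asph exons 2 to 3 turned positive. The count of circles past the threshold was 0 with limma over all libraries, 5 with limma without both shallow libraries (4 of them with no sham read), 2 with edgeR without them, and 0 to 1 with edgeR leaving out 1 library (0 with limma). Summed circles of Asph were at -1.46 with edgeR without them; leaving out 1 library gave -1.11 to 0.10 with limma and -1.70 to -0.60 with edgeR. Camk2d turned from -0.68 to 0.36 with edgeR, 0.35 with DESeq2, 0.96 with limma and 0.69 with edgeR without the shallow libraries, and leaving out 1 library gave -1.32 to 0.57 with limma and 0.06 to 0.65 with edgeR. Cacna1c was at 1.26 without them, and at 0.71 to 1.19 without 1 library.

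As a share of the library, Cacna1c differed by 0.145 percentage points without the shallow libraries and by 0.142 to 0.222 without 1 library, Trdn by -0.0223 to -0.00777, and Camk2d by 0.26 on the log2 scale, by 0.00907 without the shallow libraries and by -0.0119 to 0.00208 without 1. The share of the leading circle differed by 2.49 points for Cacna1c with at least 10 reads per library or without the shallow ones (-9.91 to 1.97 without 1 library), by -24.3 to 2.97 for Asph and by -0.437 to 29.1 for Camk2d. Read length of Asph differed by -0.018 to 0.377 on the log2 scale.

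Of single circles, Asph exons 4 to 12 turned from -0.12 to 1.30 (edgeR), 1.45 (DESeq2), 0.37 (pseudocount 1) and 2.03 and 1.89 (limma and edgeR without the shallow libraries), with -0.82 to 1.68 (limma) and 1.02 to 1.75 (edgeR) without 1 library. Asph exons 2 to 3 ranged from -1.79 to 0.29 (limma) and -2.58 to -1.21 (edgeR) without 1 library. Asph exons 15 to 19 turned to -0.16 with library totals (-1.13 to 1.59), and exons 15 to 16 to -0.16 (edgeR), -0.10 (TMM factors) and -0.27 (library totals) (-1.05 to 1.25). Cacna1c exons 4 to 6 turned to 0.24 (DESeq2) and 1.31 without the shallow libraries (-0.88 to 0.48). Without 1 library, Asph exons 6 to 12 ranged from -0.46 to 1.50 and Camk2d exons 6 to 14 from -0.42 to 1.11. Beyond the setting's own loss of libraries, the cause was not tested. The Trdn share with the denominator of circles above 0 in 4 libraries gave no value, as no Trdn circle met that filter. No paired analysis was possible because the labels carry no replicate numbers shared between groups.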
